A study of Homo sapiens with 2 samples.

Results

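Heat-shock proteins and their co-chaperones fold new proteins, hold damaged ones and pass them on for refolding or degradation. The genes examined here were chosen by name, with earlier results of these data known. The list of 45 covers the HSP70, HSP110, HSP90, small heat-shock, chaperonin, HSP40 (DNAJ) and BAG families, further co-chaperones and the heat-shock factors. Of the 45 genes, 42 had at least 1 probe set annotated to that gene alone, among 18132 genes represented on the array in the same way. The probe set with the highest mean of both arrays, called the brightest, stood for each gene, and 38 of the 42 lay above a floor on signal (5.22 on the log2 scale, the 40th percentile of mean levels over probe sets). HSPA6, HSPB6, HSPB8 and DNAJA4 lay under it. HSPA1A shared all of its probe sets with HSPA1B, and AHSA1 and HSF2 were not analysed here.

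The samples came from H1299, an established lung carcinoma line. In one group the cells were transiently transfected, with a lipid reagent, with a pcDNA plasmid that carries EGR1; in the other they received the pcDNA3.1 plasmid without an insert. Both were collected after 48 hours, and 2 µg of total RNA from each was labelled with biotin and read on an Affymetrix array. EGR1 is a zinc-finger transcription factor that growth factors and stress induce, and the study asked which genes it regulates in lung cancer cells. Each group held 1 array, so no value below has a replicate error or a test, and every difference describes these 2 arrays. The sources used here give neither the share of cells that took up the plasmid nor the number of cultures behind an array.

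Values are log2 levels made with RMA, which corrects background, normalizes arrays to each other and merges the probes of each set into a value. A difference is EGR1 minus empty vector on the log2 scale. The only repeat measurement comes from genes with more than 1 probe set. Differences within a gene had a pooled SD of 0.15 over 7114 genes with at least 2 probe sets above the floor. This is a spread between probe sets and not a replicate error. It takes in genes whose probe sets disagree, such as EGR1 (from -0.39 to 3.73). It also takes in probe sets of 1 gene with identical values, as for HSPA9. Levels of different probe sets are not relative amounts of RNA and were not ranked. In such bulk RNA a change in the share of cells that express a gene and a change in RNA per cell cannot be told apart.

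The samples were checked first. Of 6 EGR1 probe sets 2 were higher in the EGR1 array, by 13.3-fold and 6.76-fold, and the other 4 were lower, with differences from -0.39 to -0.20. The epithelial keratins KRT8 and KRT18 and the filament gene VIM were all above the floor in both arrays, and KRT8 and KRT18 were higher in the EGR1 array by 2.00 and 1.76 on the log2 scale. Of 8 marker genes of leukocytes, endothelium and fibroblasts, CD3E (5.18 and 5.49 in the empty-vector and EGR1 arrays) and PECAM1 (5.53 and 5.73) were just above the floor by their mean level and 6 were under it.

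Many of these genes answer to heat-shock factor 1 (HSF1), which under stress binds heat-shock elements, inverted repeats of the letters GAA, and raises their transcription. HSP70 proteins bind unfolded stretches of protein in a cycle driven by ATP; HSP40 proteins deliver clients to them, and HSP110 and BAG proteins release the spent nucleotide. HSP90 takes over partly folded clients such as kinases and steroid receptors, helped by co-chaperones. Small heat-shock proteins hold clients without ATP. The list is not purely cytosolic: HSPA9, HSPD1, HSPE1, TRAP1 and DNAJA3 (5 genes) encode mitochondrial chaperones, HSPA13 a microsomal one, and HSPB11, now named IFT25, a protein of ciliary transport.

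The upstream sequences of 5 genes are shown because they carry heat-shock elements and stand for the genes with differences in either direction: CHORDC1 and DNAJB4, which were lower in the EGR1 array, HSPB1, which was higher, HSP90AA1, the stress-inducible HSP90, and HSPA1A, the classical heat-shock gene. Each is the 250 bases before an annotated start, 5′ to 3′ on the gene's strand, from RefSeq (GRCh38.p14). Capitals mark matches to GAANNTTC or TTCNNGAA, the forms of 2 facing units, which overlap where units follow each other. CHORDC1 lies at chr11:90223050-90223299 on the minus strand, DNAJB4 (a downstream start) at chr1:78004689-78004938 on the plus strand, HSPB1 at chr7:76302423-76302672 on the plus strand, HSP90AA1 (a downstream start) at chr14:102087045-102087294 on the minus strand and HSPA1A at chr6:31815293-31815542 on the plus strand.
CHORDC1: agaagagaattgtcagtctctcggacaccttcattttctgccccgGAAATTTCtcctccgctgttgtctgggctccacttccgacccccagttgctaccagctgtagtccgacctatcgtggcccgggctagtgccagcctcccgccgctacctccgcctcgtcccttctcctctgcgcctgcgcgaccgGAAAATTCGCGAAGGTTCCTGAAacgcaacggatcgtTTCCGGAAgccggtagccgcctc
DNAJB4: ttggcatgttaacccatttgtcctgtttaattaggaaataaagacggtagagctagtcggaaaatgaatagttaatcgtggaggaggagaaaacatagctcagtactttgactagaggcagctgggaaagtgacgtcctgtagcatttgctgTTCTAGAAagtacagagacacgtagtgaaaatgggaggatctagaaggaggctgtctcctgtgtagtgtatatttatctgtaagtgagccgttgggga
HSPB1: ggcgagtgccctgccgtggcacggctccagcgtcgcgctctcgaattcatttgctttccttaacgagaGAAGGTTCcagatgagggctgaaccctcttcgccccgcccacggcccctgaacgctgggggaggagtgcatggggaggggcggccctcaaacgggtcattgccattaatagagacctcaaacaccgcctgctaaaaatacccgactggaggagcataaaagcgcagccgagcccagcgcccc
HSP90AA1: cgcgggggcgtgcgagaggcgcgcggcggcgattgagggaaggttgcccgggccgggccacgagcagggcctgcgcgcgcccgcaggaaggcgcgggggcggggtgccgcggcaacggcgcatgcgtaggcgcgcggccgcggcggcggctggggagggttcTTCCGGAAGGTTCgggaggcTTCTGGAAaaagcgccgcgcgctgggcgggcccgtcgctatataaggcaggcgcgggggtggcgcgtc
HSPA1A: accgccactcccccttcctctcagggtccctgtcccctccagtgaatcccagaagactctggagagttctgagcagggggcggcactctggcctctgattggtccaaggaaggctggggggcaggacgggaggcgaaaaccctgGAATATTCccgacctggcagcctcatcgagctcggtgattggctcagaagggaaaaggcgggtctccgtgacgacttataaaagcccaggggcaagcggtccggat
CHORDC1 has an unbroken run of facing units from position -60 to -38, where -1 is the base before the start, and HSP90AA1 has one from -88 to -76. DNAJB4, HSPB1 and HSPA1A each hold a single match to the 2-unit form, which for HSPA1A begins at -106.

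Windows of 300 bases, from 250 before to 50 after a start, were on hand for 39 of the 45 genes, and both strands were searched. The 2-unit form was present for 20 of the 39 (51.3%) and for 16.2% of all 27305 genes with a window. The 3-unit form, in which GAANNTTC runs on into NNGAA or TTCNNGAA into NNTTC, was present for 8 of 39 (20.5%) against 0.608% of all genes; these were CHORDC1, DNAJA1, DNAJB6, HSP90AA1, HSP90AB1, HSPA6, HSPA8 and HSPD1. A match to the EGR1 motif, GCGGGGGCG or GCGTGGGCG, was found for 8 of 39 (20.5%), against 6.95% of all genes. The genes with an EGR1 match were BAG3, DNAJA1, DNAJA2, DNAJB1, HSP90AA1, HSPA4, HSPA8 and HSPB11, and HSP90AA1 and DNAJB1 had 2 matches each. A gene counted if any of its windows held a match, and some genes had several windows. The shares were not adjusted for the number of windows per gene or for base composition. Matches to letters are a description and not binding sites.

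Differences were set beside these motifs without a test. The 15 genes above the floor with a 2-unit element had a median difference of -0.07, from -0.40 to 0.28, and 12 (80.0%) lay below 0. The 17 without one had a median of -0.04, from -0.57 to 0.36, and 10 (58.8%) lay below 0. The 2 groups were not matched for mean level, and 66.9% of all genes at a mean level of 9 or higher were below 0. Over all genes above the floor with a window, the median was -0.03 for 1385 genes with the element, of which 57.0% were below 0, and -0.02 for 8927 without it, of which 53.5% were. The 8 genes with an EGR1 match ran from -0.09 to 0.10 with a median of -0.02, so none of them reached 1.2-fold in either direction. Of all genes above the floor 5.85% were that much lower and 7.07% higher, so 8 genes are too few to differ from this background. No share was computed for all genes with an EGR1 match. The 7 genes above the floor with the 3-unit form had a median of -0.07, and 6 of them were below 0. All 7 had a mean level of 9 or higher, and no share below 0 was computed for all genes with this form.

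Across the list, differences were small. None of the 38 genes above the floor was at or beyond 2-fold, where 0.356% of all 12652 genes above the floor were. At or beyond 1.2-fold (0.26 on the log2 scale), 3 were lower, HSPA2, DNAJB4 and CHORDC1, and 2 were higher, HSPB1 and FKBP5. These shares, 7.89% lower and 5.26% higher, stand beside 5.85% and 7.07% of all genes above the floor, so neither departs far from the background. The other 33 lay within 1.2-fold, and 27 of 38 (71.1%) lay within the pooled SD between probe sets, against 62.5% of all genes above the floor.

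Many genes were slightly lower in the EGR1 array. Of the 38, 27 (71.1%) were below 0, against 52.8% of all genes above the floor, and 11 were above 0, against 44.6%. The median over the 42 measured genes was -0.05, and that over all represented genes was 0. Brightness goes with this: among genes with a mean level of 9 or higher, a bound chosen after the values were seen, 66.9% of all 2852 were below 0 with a median of -0.05, and 17 of the 26 heat-shock and co-chaperone genes there (65.4%) were, with a median of -0.04. After a lowess correction for mean level, 22 of the 38 (57.9%) were below 0. The share was then 47.3% of all genes above the floor and 52.7% of those at a mean level of 9 or higher. The corrected median over the 42, of which 4 are under the floor, was -0.032. Over all genes above the floor it was 0.009. The part of brightness in the lean was not tested. The plot of cumulative differences shows the uncorrected values.

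**Figure D1:**
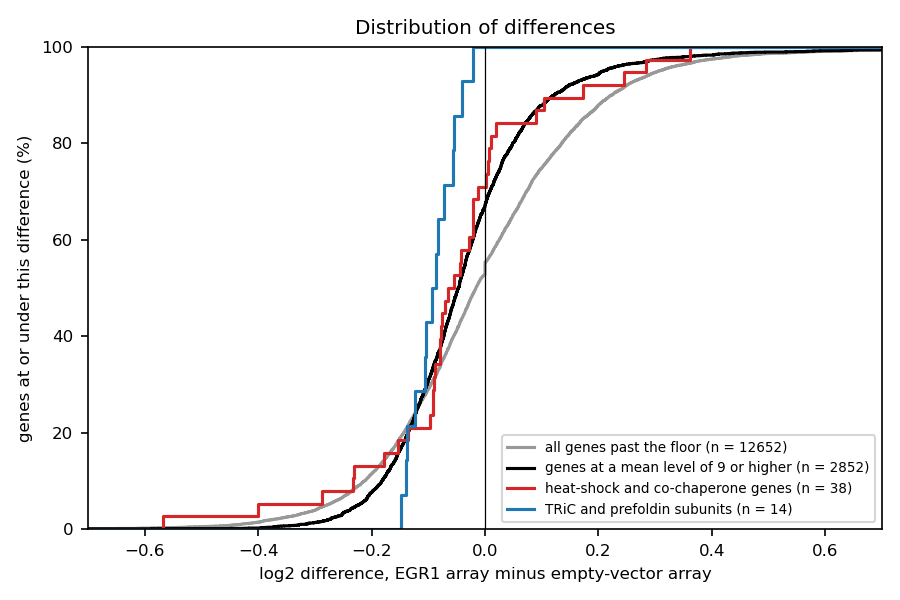
Cumulative share of genes (vertical axis, percent) at or under each log2 difference, EGR1 array minus empty-vector array (horizontal axis), for 12652 genes above the floor, the 2852 of them at a mean level of 9 or higher, 38 heat-shock and co-chaperone genes and 14 TRiC and prefoldin subunits. The curve of the 38 genes crosses 0 at 71.1%, near that of bright genes (66.9%) and above that of all genes, whose share below 0 is 52.8%; the 14 subunits all lie below 0.

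Probe sets of one gene gave a further view. Of 115 probe sets of these genes above the floor 87 (75.7%) were below 0, against 54.8% of all probe sets with 1 gene symbol above the floor; probe sets of one gene can share probes. In 26 genes at least 2 probe sets were above the floor. In 14 of the 26 (53.8%) every such probe set was below 0, against 34.4% of 7114 genes, and in 5 (19.2%) every one was above 0, against 21.2%. The 14 were HSPA9, HSPA13, HSPA14, HSPA4L, HSPH1, HSP90AA1, HSPD1, DNAJA1, DNAJB2, DNAJB4, DNAJB6, BAG2, BAG4 and CHORDC1. The 5 were HSPB11, DNAJA2, DNAJB5, STIP1 and FKBP5. The dimmest probe set gave a lower difference than the brightest in 12 of the 26 and a higher one in 14, beside 50.9% lower among the 7114 genes. None of the shares in this paragraph was computed for bright genes alone. Of the 38 listed genes above the floor, 26 had a mean level of 9 or higher, against 2852 of all 12652.

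**Figure D2:**
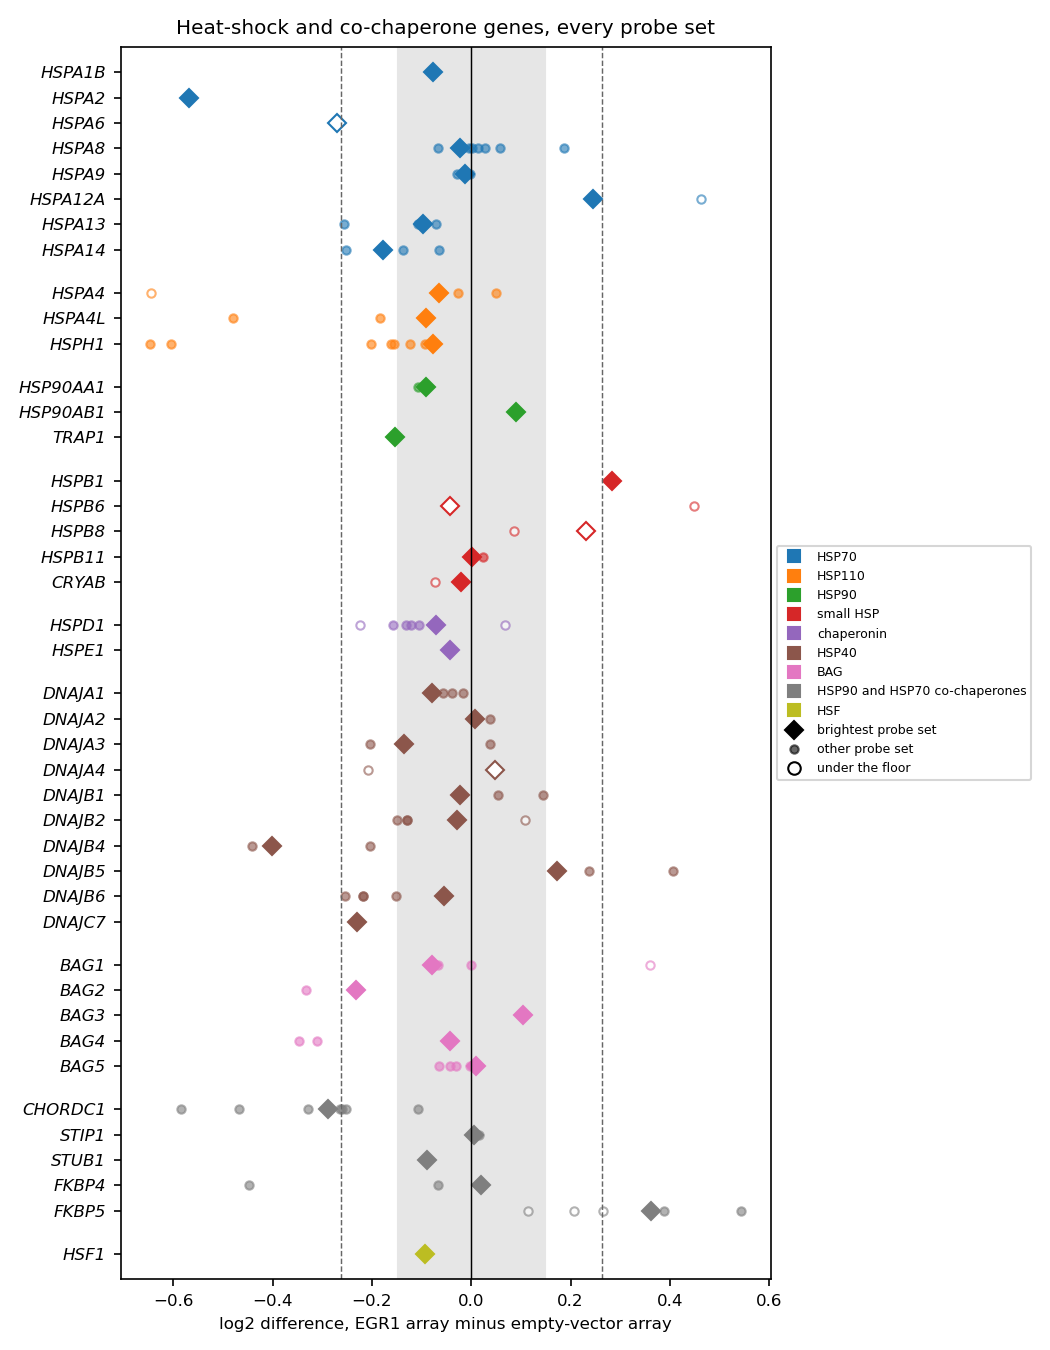
Log2 difference, EGR1 array minus empty-vector array (horizontal axis), of every probe set with 1 gene symbol for the 42 measured genes, grouped by family (colour). Diamonds are the brightest probe set, circles the others and open symbols those under the floor; the grey band is the pooled SD between probe sets of 0.15 on each side of 0 and dashed lines mark 1.2-fold. CHORDC1 and HSPH1 have all 8 probe sets below 0, and FKBP5 has all 6 above 0, of which 3 are above the floor.

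Of the heat-shock factors on the list of 45, only 1 gene was measured. HSF1, the main activator of the heat-shock response, read 8.36 with the empty vector and 8.27 with EGR1 by its 1 probe set, a difference of -0.09. This is inside the spread between probe sets. HSF4, on the separate list of other chaperone genes below and named after its values were seen, read 6.41 and 6.51. Of its 4 probe sets above the floor 3 were above 0 and 1 was below.

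In the HSP70 family 6 of the 7 genes above the floor were below 0, against 52.8% of all genes above the floor and 66.9% of those at a mean level of 9 or higher. The median over 8 measured genes, HSPA6 under the floor included, was -0.09. HSPA2, an HSP70 form best known from the testis, read 7.56 with the empty vector and 6.99 with EGR1. It was thus 1.48-fold lower, the widest difference of the list, and rests on 1 probe set. HSPA8, the constitutive HSP70 (HSC70), read 13.79 and 13.76 by the brightest of 9 probe sets, which ran from -0.07 to 0.19 with 4 below 0 and 5 above. HSPA9 (mortalin) read 11.74 and 11.73, and its 5 probe sets all lay between -0.03 and -0.003. These housekeeping forms were therefore close to equal in the 2 arrays. HSPA14, which works at the ribosome, read 8.59 and 8.41, 1.13-fold lower with all 4 probe sets below 0. HSPA13 differed by -0.10 and its 4 probe sets ran from -0.26 to -0.07. HSPA12A, a distant family member, went the other way, with 5.71 and 5.96 by a probe set close to the floor.

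The stress-inducible HSP70 genes gave no single direction. HSPA1A and HSPA1B are neighbouring, almost identical genes, whose 300-base windows matched at 92.0% of aligned positions, and 4 probe sets are annotated to both. The brightest of these read 12.37 with the empty vector and 12.63 with EGR1, 1.21-fold higher, and the next read 11.48 and 11.72, 1.18-fold higher. The other shared probe sets read 11.06 and 10.94, and 10.72 and 10.68. The probe set annotated to HSPA1B alone read 10.28 and 10.21, a difference of -0.08. So 2 of the 4 shared probe sets were higher and 2 lower, and none of them can be assigned to one of the genes. HSPA6, the strictly inducible HSP70, read 5.29 and 5.02 under the floor by its own probe set, while the one shared with HSPA7 read 5.30 and 5.46.

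The HSP110 genes, which act as nucleotide exchange factors for HSP70, were all 3 below 0, against 52.8% of all genes above the floor. By their brightest probe sets HSPA4 differed by -0.07 (11.28 and 11.22), HSPA4L by -0.09 (7.85 and 7.76) and HSPH1 by -0.08 (10.69 and 10.61). These values are inside the spread between probe sets. The dimmer probe sets of HSPH1 and HSPA4L went further in the same direction. Of the 8 HSPH1 probe sets 6 lay between -0.20 and -0.08, and the 2 dimmest gave -0.65 (7.54 and 6.89) and -0.61 (6.01 and 5.40). HSPA4L reached -0.48 in its dimmest probe set (6.51 and 6.03). With probe sets averaged within each gene, the family median was -0.25 and not -0.08. HSPA4 probe sets above the floor ran from -0.07 to 0.05, and the one under it differed by -0.64.

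The HSP90 genes diverged by small amounts. HSP90AA1, the inducible cytosolic form, read 13.27 with the empty vector and 13.17 with EGR1, and its other probe set also was lower (-0.11). HSP90AB1, the constitutive form, read 12.79 and 12.88, and a probe set shared with the pseudogene HSP90AB3P likewise differed by 0.11. TRAP1, the mitochondrial HSP90, read 9.44 and 9.28, a difference of -0.15 on 1 probe set. The paralogs HSP90AA1 and HSP90AB1 thus lay on opposite sides of 0, each by less than the pooled SD.

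HSPD1 and HSPE1 encode the mitochondrial chaperonin HSP60 and its lid HSP10. HSPD1 read 12.55 and 12.47 by the brightest, and all 5 probe sets above the floor lay between -0.16 and -0.07. HSPE1 read 9.75 and 9.71 by its own probe set. The brighter HSPE1 probe set, shared with the HSPE1-MOB4 read-through gene, read 12.20 and 12.08. Both genes were slightly lower by each of these probe sets.

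Small heat-shock genes differed from one another. HSPB1, which encodes HSP27, an abundant actin-binding small heat-shock protein, read 11.28 with the empty vector and 11.56 with EGR1. It was 1.22-fold higher, on 1 probe set, whose _x_at suffix marks possible binding to related transcripts. CRYAB, the alpha-B-crystallin gene, read 5.56 and 5.54, close to the floor. HSPB11 was level at 9.70 in both arrays. HSPB8, a partner of BAG3 in selective autophagy, read 4.33 and 4.56, and HSPB6 read 4.25 and 4.20, both under the floor. The median of the 5 was 0.002, which is the value of HSPB11, the gene of ciliary transport, and so does not describe the others.

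**Figure D3:**
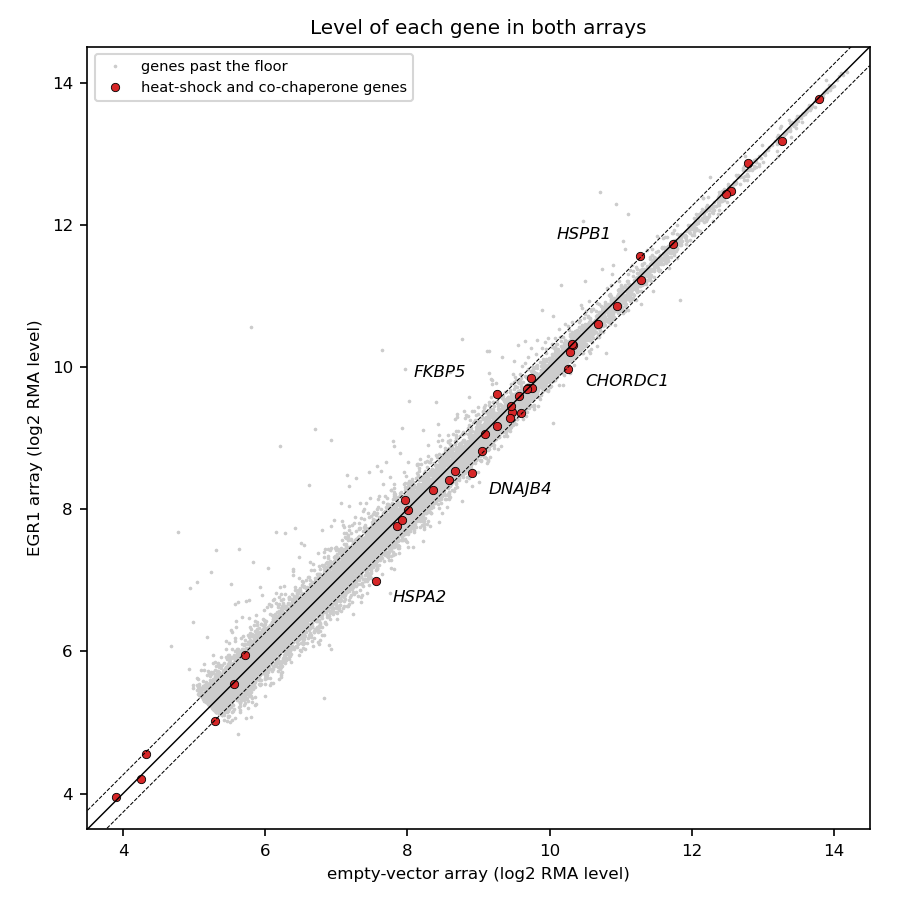
Log2 RMA level of each gene in the EGR1 array (vertical axis) against the empty-vector array (horizontal axis), 1 point per gene by its brightest probe set; grey points are 12652 genes above the floor and red points the 42 measured heat-shock and co-chaperone genes. The solid line is equality and the dashed lines mark 1.2-fold; the named genes HSPA2 (7.56 and 6.99), DNAJB4 and CHORDC1 lie under the lower line, and FKBP5 and HSPB1 (11.28 and 11.56) over the upper one.

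Of the 9 HSP40 genes above the floor 7 were below 0, against 52.8% of all genes above the floor and 66.9% of those at a mean level of 9 or higher. The median over 10 measured genes, DNAJA4 under the floor included, was -0.04. DNAJB4, a partner of cytosolic HSP70, read 8.90 and 8.50 in the empty-vector and EGR1 arrays by its brightest probe set. It was 1.32-fold lower, and the others read 8.79 and 8.34, and 7.71 and 7.50, so all 3 probe sets were lower by more than the pooled SD. DNAJC7, a co-chaperone that binds both HSP70 and HSP90, read 9.04 and 8.81, 1.17-fold lower on 1 probe set. DNAJB5 went the other way, at 7.96 and 8.14 by the brightest of 3 probe sets, which ran from 0.17 to 0.41. DNAJB1, the main stress-inducible HSP40, read 10.33 and 10.31, and its other probe sets differed by 0.15 and 0.05. The inducible DNAJB1 and DNAJB4 thus did not lie together. DNAJB6, a suppressor of aggregation, had all 5 probe sets below 0, from -0.25 to -0.06, with the smallest difference in the brightest. DNAJA1 (-0.08), DNAJA2 (0.008), DNAJA3 (-0.14) and DNAJB2 (-0.03) were inside the pooled SD by their brightest probe sets. DNAJA4 read 3.90 and 3.95, under the floor.

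By their brightest probe sets BAG genes were near 0 except for BAG2. BAG2, which inhibits the ubiquitin ligase STUB1, read 9.59 with the empty vector and 9.36 with EGR1, 1.17-fold lower, and its other probe set differed by -0.33. BAG3, the stress-induced member that directs clients to autophagy, read 9.74 and 9.84. BAG4 differed by -0.04 in its brightest probe set (9.10 and 9.05) and by -0.35 and -0.31 in the others. BAG1, which links HSP70 to the proteasome, differed by -0.08, and BAG5 by 0.01 with its 5 probe sets between -0.06 and 0.01.

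Of 5 measured co-chaperones, 1 was lower and 1 higher beyond 1.2-fold, and both were so with every probe set on one side of 0. CHORDC1, an HSP90-binding protein also called morgana, read 10.26 with the empty vector and 9.97 with EGR1 by its brightest probe set. It was 1.22-fold lower, and all 8 probe sets were below 0, from -0.58 to -0.11, and averaged -0.32 (SD 0.15 between probe sets). FKBP5, an immunophilin that HSP90 carries in steroid receptor complexes and that glucocorticoids induce, read 9.26 and 9.62. It was 1.28-fold higher, and all 6 probe sets were above 0, from 0.11 to 0.54, and averaged 0.31 (SD 0.15). Only 3 of these 6 were above the floor, and they ran from 0.36 to 0.54. Its paralog FKBP4 was level at 10.31 and 10.33, and its dimmest probe set read 5.74 and 5.29. STIP1, the adaptor that joins HSP70 to HSP90, read 9.45 and 9.46, and STUB1, the ubiquitin ligase CHIP, 9.25 and 9.17. So of the HSP90 partners CHORDC1 and FKBP5 lay on opposite sides of 0, and STIP1 and FKBP4 did not reach the pooled SD by their brightest probe sets; FKBP4 did with probe sets averaged (-0.17).

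Other chaperone genes, from a separate list of 47, were set beside these. Of 44 measured, all above the floor, none was at or beyond 1.2-fold lower and 4 were higher by that fold, against 5.85% and 7.07% of all genes above the floor, and none reached 2-fold. The median was -0.05. FKBPL, an HSP90 co-chaperone, read 7.21 and 7.57, and HSPBP1, an HSP70 nucleotide exchange factor, read 8.44 and 8.77 by its brightest probe set. The other 2 HSPBP1 probe sets differed by -0.08 and -0.10, so its direction was not settled either. The lowest differences were those of DNAJC9, a histone chaperone, at 9.69 and 9.45, and PPID, a cyclophilin bound to HSP90, at 8.26 and 8.02. DNAJC9 probe sets ran from -0.25 to 0.29, so its direction was not settled among them.

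The subunits of 2 folding machines lay together below 0 in that list. TRiC is the cytosolic chaperonin that folds actin and tubulin, and prefoldin hands clients to it. All 8 TRiC genes were below 0, between -0.14 and -0.02 with a median of -0.10. All 6 prefoldin genes were too, between -0.15 and -0.04 with a median of -0.08. Every one of these 14 is bright (lowest mean level 9.19), and 66.9% of genes at a mean level of 9 or higher were below 0. Each difference is inside or at the pooled SD between probe sets of 0.15. CCT6A read 10.84 with the empty vector and 10.70 with EGR1, and PFDN4 read 10.70 and 10.55; both were named after their values were seen. After a lowess correction for mean level all 8 and all 6 remained below 0, with medians of -0.07 and -0.04, and 52.7% of genes at a mean level of 9 or higher were. The part of brightness in these values was not tested. The list of heat-shock factor partners and HSF1 target genes had 7 of 10 genes above 0, against 44.6% of all genes above the floor, and a median of 0.05, which was 0.009 with probe sets averaged within each gene.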

How the data were processed

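Two-group expression data of H1299 cells on 1 Affymetrix array per group were analysed. The deposited values are log2 levels that the authors made with RMA, per the submitters' processing notes; the sources used here do not give software, version or settings. RMA gives no detection call, so a low level can be background. Of 49395 probe sets 44994 carried 1 gene symbol in the platform annotation, updated by Entrez ID to RefSeq (GRCh38.p14) symbols; HSPB11 was matched as IFT25. The 9 probe sets with several symbols that include a listed gene represented none of them and are described as shared. The brightest probe set stood for a gene, with ties decided by the order of the identifiers. Genes with a mean level at or above the floor were counted at 2-fold and 1.2-fold; no test was possible with 1 array per group, and the number of arrays limits the precision. Named genes were all listed genes, with levels for the central ones, for the 3 largest differences per family and for the 2 highest and 2 lowest of the other chaperone genes. Alternatives were the mean of all probe sets, no _x_at or _s_at probe sets, a lowess correction (fraction 0.3), centring and other floors. The members, the lists and the 1.2-fold bound were chosen with earlier results of these data known. No protein sequences were used here. The calculation was tested on simulated data. Python 3.11.15, pandas 2.3.3 and statsmodels 0.14.6 were used.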

Additional observations from a re-analysis of the deposited data

How the results depend on the processing

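Of 145 summary values recomputed under the alternatives, 131 stayed within 1.5 times the count or within the pooled probe-set SD divided by the square root of the number of genes, and 14 did not; no listed gene at or beyond 1.2-fold changed direction. With probe sets averaged within each gene the median of the listed genes was -0.078, of HSP110 -0.25, of small heat-shock genes 0.16 and of the HSP90 and HSP70 co-chaperones -0.089, and 1 of the other chaperone genes was at or beyond 1.2-fold lower. Without _x_at and _s_at probe sets the count of listed genes at or beyond 1.2-fold higher was 1, that of the other chaperone genes was 1, and medians were -0.18 for HSP70, 0.067 for the chaperonin genes, -0.066 for the HSP90 and HSP70 co-chaperones and -0.062 for the other co-chaperones. The chaperonin value then rests on 1 dim HSPD1 probe set, HSPB1 has no probe set left, and 31 listed genes remain above the floor. After the lowess correction the median of the other chaperone genes was -0.0063 and of their co-chaperone group 0.014. With the floor at the 60th percentile the small heat-shock median was 0.14, and it then rests on HSPB1 and HSPB11 alone. The cause of these shifts was not tested, except where fewer probe sets or genes remain. Of the 38 listed genes above the floor 27 were below 0, which became 26 with centring and 22 after the lowess correction. Where other genes entered, 21 of 31 were below 0 without _x_at and _s_at probe sets, 25 of 36 with probe sets averaged, 26 of 36 with the higher floor and 29 of 42 with no floor. Of 42 listed genes 13 took both signs under some alternative, so their directions are not settled across these settings. They were BAG1, BAG4, BAG5, DNAJA3, DNAJA4, DNAJB1, DNAJB2, FKBP4, HSPA8, HSPA9, HSPB6, HSPD1 and HSPE1. HSPD1 was above 0 only without _x_at and _s_at probe sets, by 1 probe set under the floor. Its 5 probe sets above the floor were all below 0. No paired analysis was possible because each group holds 1 array.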
